A study of Homo sapiens with 12 samples.

Results

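OCIAML5 is a human acute myeloid leukemia line grown with granulocyte-macrophage colony-stimulating factor (GM-CSF). The study sequenced its control cells in 2 experiments, one on knockdown of PSPC1, which binds RNA in the nuclear bodies called paraspeckles, and one on knockdown of SPI1, which encodes PU.1, a transcription factor of myeloid cells. The members described here are the 2 OCIAML5 control libraries of the PSPC1 experiment and the 2 of the PU.1 experiment, 4 of the 12 libraries of the series. They were chosen by label, as the same line under the same label in both experiments, and were set side by side by gene symbol. All 4 carried a lentiviral control hairpin, per their titles. The labels give 1 growth protocol for every OCIAML5 sample, alpha-MEM with 20% serum and 10 ng/mL human GM-CSF, and 1 infection protocol that ends in puromycin selection or in a sort for GFP. Which of these each experiment used, how long the cells had been in culture and whether the libraries of a pair came from separate cultures are not stated. Each experiment holds its own controls only, so culture, selection, library preparation and sequencing run cannot be told apart in any difference between them. Since separate cultures are not documented, the tests are made against the spread from library to library, which may be technical only.

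Cells have switches that read the medium and the state of their proteins, and whether any of them acted here was not tested. When amino acids run short or proteins misfold in the endoplasmic reticulum, the eIF2 kinases slow translation in general while the transcription factor ATF4 is made in larger amounts, and ATF4 turns on amino acid transporters, serine and asparagine synthesis and tRNA synthetases. HSF1 does the like for chaperones when cytosolic proteins unfold. Monocytic leukemia cells also have an axis of differentiation. Granule proteins of the promyelocyte stand on one side, and MHC class II and scavenger receptors of the monocyte on the other.

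Total counts were 18.5 and 15.8 M in the controls of the PSPC1 experiment and 33.4 and 39.7 M in those of the PU.1 experiment. Levels are given as CPM, counts scaled to the TMM library size, and every difference is the log2 level in the PU.1-experiment controls minus that in the PSPC1-experiment controls, so a negative value is lower in the PU.1 experiment. Of 128 genes that separated MOLM13 from OCIAML5 by at least 16-fold in the PSPC1-knockdown libraries, 127 in the PSPC1-experiment controls and 123 in the PU.1-experiment controls were nearer to the OCIAML5 level, against 1 in the MOLM13 controls. Of 14 myeloid markers, 12 reached 1 CPM, and ANPEP was near 0. Markers of other cells were mostly silent: 14 of 14 erythroid, 14 of 14 epithelial and fibroblast, 13 of 15 T and NK, 9 of 12 B and 7 of 10 megakaryocyte genes were under 1 CPM in all 4 libraries. For these marker counts alone, CPM was scaled to the total counts without the TMM factor. The targets of both hairpins did not pass the test, PSPC1 at 103 and 103 CPM against 105 and 112 CPM, and SPI1 at 209 and 187 CPM against 225 and 202 CPM, with adjusted p of 0.33 and 0.11 (edgeR quasi-likelihood test). SPI1 did pass under 3 other settings with opposite signs, at -0.15 with length and GC offsets (adjusted p = 0.0079), 0.19 without the first control of the PSPC1 experiment (adjusted p = 0.0079) and 0.19 without the second of the PU.1 experiment (adjusted p = 0.015), so no direction is given for it.

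Within an experiment the 2 controls lay close together. Over 10420 genes of at least 5 CPM the median absolute log2 ratio was 0.0937 between the PSPC1-experiment controls and 0.0709 between the PU.1-experiment controls. Across experiments it ran from 0.219 to 0.244 in the 4 possible pairs. Of 17159 genes tested, 6681 (38.9%) differed between the experiments at an adjusted p under 0.05, 3431 higher (20%) and 3250 lower (18.9%) in the PU.1-experiment controls. These shares of 20% and 18.9% are the background for the list counts of this difference. Most differences were small: 1207 genes (7.03%) also differed at least 2-fold, 534 of them higher (3.11%) and 673 lower (3.92%). Both libraries of 1 experiment lay beyond both of the other for 66.2% of the genes tested, the PU.1 experiment above for 33.8% and below for 32.4%. The fit gives both knockdowns on the same scale, with 3379 genes (19.7%) at 2-fold for PSPC1 knockdown and 2773 (16.2%) for PU.1 knockdown, each against its own controls. In bulk RNA, fewer cells of a type and less RNA per cell cannot be told apart.

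**Figure D1:**
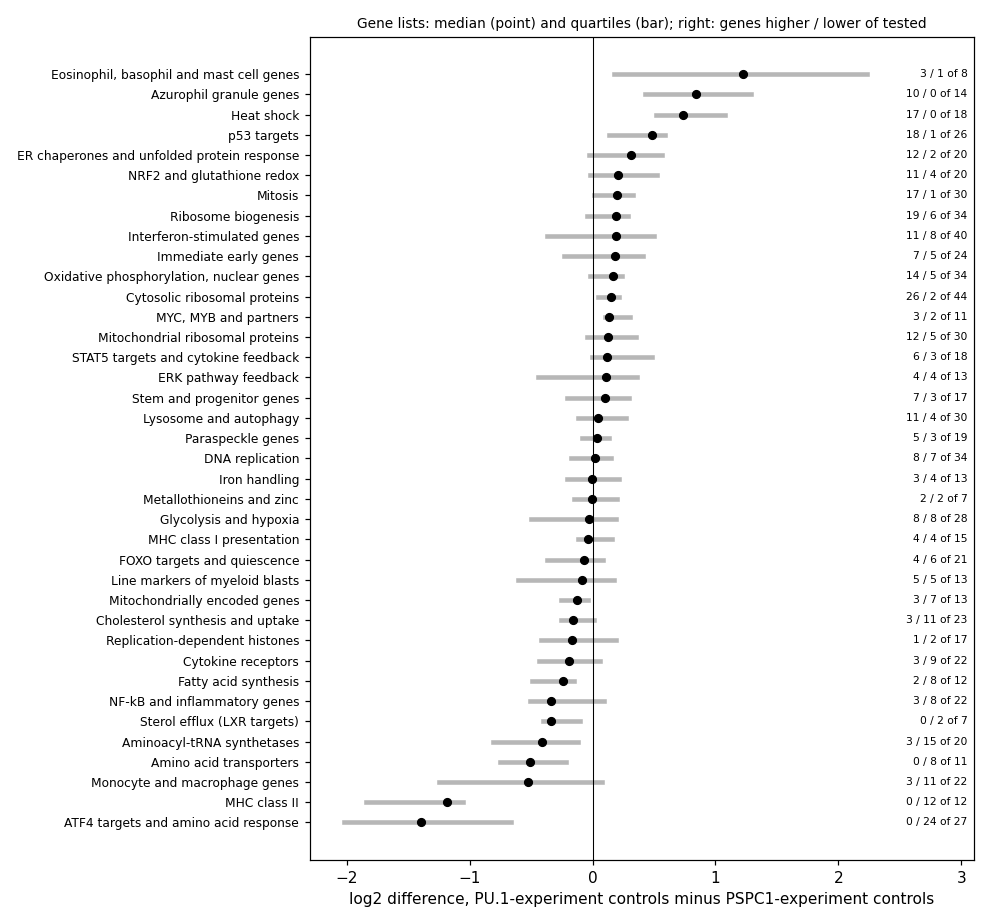
Median log2 difference (point) and quartiles (bar) of each gene list with at least 7 tested genes, PU.1-experiment controls minus PSPC1-experiment controls. The counts at the right are the genes that were higher, then lower, of those tested; the ATF4 and MHC class II lists lie lowest, at -1.40 and -1.19.

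The genes of the ATF4 response were lower in the PU.1-experiment controls. Of 27 tested, 24 were lower and 0 higher (background 18.9% and 20%), with a median of -1.40 against 0.0042 for all genes. CHAC1, an enzyme that degrades glutathione and a standard readout of ATF4, stood at 35.6 and 33.3 CPM in the PSPC1-experiment controls and at 0.596 and 0.841 CPM in the PU.1-experiment controls, a difference of -5.56 ± 0.225 (SE; adjusted p = 8.1e-25). This was the largest difference in the naming rule, and the pairs lay 47.1-fold apart. ADM2, a peptide hormone of the adrenomedullin family, had 11.6 and 9.63 CPM against 0.627 and 0.368 CPM (-4.43 ± 0.333; adjusted p = 3.2e-15). ASNS, which makes asparagine, had 5.42 and 6.40 CPM against 1.47 and 0.841 CPM (-2.36 ± 0.305; adjusted p = 1.4e-08). In all 3 genes both PU.1-experiment controls were low and no library crossed over. The mRNA of ATF4 itself was slightly lower, at 380 and 384 CPM against 351 and 343 CPM (-0.14 ± 0.042, edgeR adjusted p = 0.0066). It did not pass with no low-count filter (-0.072, edgeR adjusted p = 0.59), and was -0.12 without the second control of the PU.1 experiment. ATF4 protein was not measured.

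The response elements of this program can be read in the promoters. ATF4 binds, with a C/EBP partner, to the C/EBP-ATF response element (CARE), searched for here as TGATGNAAN on both strands in the 250 bases before and 50 after the start of each gene in RefSeq (GRCh38.p14). Of 29 genes in the list, 24 had a promoter in the table, and 4 of the 24 (16.7%) held the element, against 3.67% of 27305 promoters. The 3 that were also tested in the libraries are shown with the element in capitals, as genes of the response whose levels are given here; a match is a description of the letters and not a measured site. They lie at chr15:40953251-40953279 (plus strand), chr7:97872458-97872486 (minus strand) and chr1:212565206-212565234 (plus strand), and the element begins 210, 68 and 191 bases before the RefSeq start.
CHAC1: ctcccctgccGTTGCATCActcctgccag
ASNS: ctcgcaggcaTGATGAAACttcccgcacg
ATF3: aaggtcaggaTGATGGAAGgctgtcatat
The element is on the reverse strand in CHAC1 and on the forward strand in ASNS and ATF3. ATF3, a stress-induced repressor, had 13.4 and 15.97 CPM against 4.33 and 4.57 CPM (-1.72 ± 0.172; adjusted p = 1.9e-11).

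Several members of the list are enzymes of serine and one-carbon metabolism. PHGDH and PSAT1, the first 2 steps of serine synthesis, had 273 and 302 CPM against 110 and 110 CPM, and 382 and 407 CPM against 116 and 120 CPM (-1.39 ± 0.055 and -1.74 ± 0.050). ALDH1L2, a mitochondrial folate enzyme, had 300 and 283 CPM against 57.5 and 61.1 CPM (-2.298 ± 0.057; adjusted p = 8.1e-33). MTHFD2, the folate enzyme often raised in tumors, had 311 and 343 CPM against 142 and 152 CPM (-1.16 ± 0.050). These abundant enzymes show the lower levels in both libraries with a small spread. CTH of cysteine synthesis (-2.36), DDIT4, an inhibitor of mTORC1 (-2.61), DDIT3, the stress factor CHOP (-1.93), and TRIB3, a pseudokinase that restrains the pathway (-1.31), were lower as well. The 3 of the 27 that did not pass were CHAC2 (0.11), ATF5 (0.19, but 0.41 with adjusted p = 0.014 without the first control of the PSPC1 experiment) and GDF15, which had at most 0.226 CPM in the 4 libraries.

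**Figure D2:**
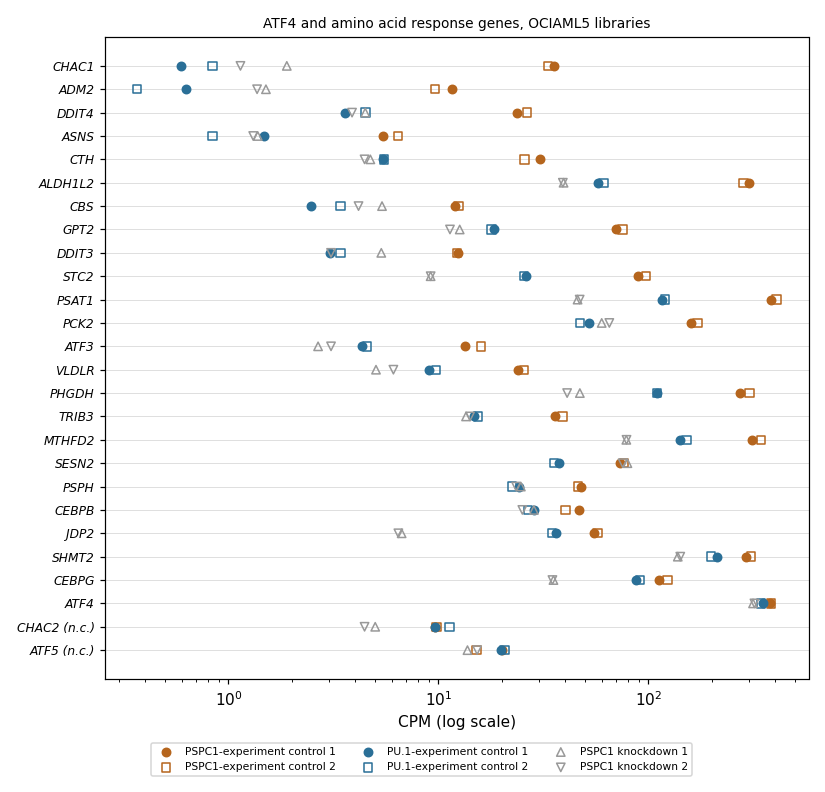
CPM (log scale) of the ATF4 and amino acid response genes in the 4 OCIAML5 controls and the 2 PSPC1-knockdown libraries, ordered by the difference between the controls; n.c. marks genes that did not pass, and GDF15 is left out because 1 library had no count. CHAC1 stands at 35.6 and 33.3 CPM in the PSPC1-experiment controls and at no more than 1.90 CPM in the other 4 libraries.

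Amino acid uptake and tRNA charging followed the same direction. Of 11 transporters tested, 8 were lower and 0 higher (median -0.51), and of 20 cytosolic aminoacyl-tRNA synthetases, 15 were lower and 3 higher (median -0.41). SLC7A11, the cystine importer, had 61.1 and 58.7 CPM against 9.31 and 11.6 CPM (-2.51 ± 0.104; adjusted p = 2.3e-24). SLC38A1, a glutamine carrier and one of the 5 most abundant genes lower by 2-fold, had 479 and 455 CPM against 171 and 177 CPM (-1.43 ± 0.045). The leucine transporter SLC7A5 differed less, 784 and 773 CPM against 569 and 541 CPM (-0.49 ± 0.041). Among the synthetases WARS1 (-1.65), AARS1 (-1.26), CARS1 (-1.24), TARS1 (-1.17) and GARS1 (-0.98) led, charging tRNA with tryptophan, alanine, cysteine, threonine and glycine. The 3 that were higher were FARSA (0.48), VARS1 (0.15) and RARS1 (0.14). VARS1 lost its call with length and GC offsets (0.0049) and without the first control of the PU.1 experiment (0.074), and RARS1 under DESeq2 (adjusted p = 0.10), RLE size factors, the 4 controls alone, thinning and leaving out any single library but the first control of the PU.1 experiment. TARS1 and FARSA lie on the chromosome arms 5p and 19p, whose genes as a whole were lower and higher, and SLC43A1, SLC7A6 and SLC36A4 did not pass.

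Cytosolic chaperones went the other way. Of 18 heat shock genes tested, 17 were higher in the PU.1-experiment controls and 0 lower, with a median of 0.74. Their summed level was 7548 and 7862 CPM in the PSPC1-experiment controls and 12294 and 12657 CPM in the PU.1-experiment controls. HSPA8, the constitutive Hsc70, had 1134 and 1196 CPM against 2879 and 3019 CPM (1.34 ± 0.040; adjusted p = 9.8e-30) and was the most abundant gene higher by 2-fold. HSPH1, its exchange factor, had 267 and 278 CPM against 589 and 604 CPM (1.13 ± 0.043). DNAJB1, the co-chaperone most responsive to heat, had 40.8 and 40.1 CPM against 128 and 127 CPM (1.65 ± 0.061) and lies on 19p. The inducible HSP70 genes showed the steepest differences, HSPA1A with 4.74 and 2.84 CPM against 32.6 and 35.0 CPM (3.13 ± 0.143) and HSPA1B with 6.60 and 8.45 CPM against 46.5 and 46.1 CPM (2.63 ± 0.117). Their sequences are near identical, so the split of reads between them is uncertain. HSP90AA1 (0.76), its partner FKBP4 (0.82) and the small heat shock protein HSPB1 (0.66) were also higher, while the mRNA of HSF1 did not pass (138 and 144 CPM against 148 and 130 CPM; adjusted p = 0.74), although it was lower with length and GC offsets (-0.21; adjusted p = 0.00019). SNORD14E, a small nucleolar RNA inside an intron of HSPA8 (3.67), cannot be told from its host in these libraries.

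A heat shock element was searched for as 3 alternating units of GAA and TTC, in either order, each 2 bases apart. It stood in 3 of the 16 heat shock genes with a RefSeq promoter (18.8%) and in 0.487% of all promoters; this motif was chosen after the values were seen. HSPA8 and CHORDC1, an HSP90 co-chaperone (0.71), are shown with the units in capitals, as abundant members whose site lies before the start. The windows are chr11:123062171-123062199 and chr11:90223079-90223107, both on the minus strand.
HSPA8: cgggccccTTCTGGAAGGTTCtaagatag
CHORDC1: aaaTTCGCGAAGGTTCCTGAAacgcaacg
The units begin 55 bases before the start in HSPA8, and in CHORDC1 they continue over more than 3 repeats. DNAJA1, an HSP40 co-chaperone (0.87), held its match after the start and is not printed.

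Endoplasmic reticulum chaperones split. Of 20 genes, 12 were higher and 2 lower (median 0.31). HSPA5, the lumenal HSP70 known as BiP, had 449 and 455 CPM against 740 and 773 CPM (0.74 ± 0.041), CALR 820 and 855 CPM against 1550 and 1519 CPM (0.87 ± 0.039), and SDF2L1 17.8 and 22.4 CPM against 47.5 and 41.2 CPM (1.15 ± 0.099). CALR lies on 19p. These are folding genes of the ATF6 and XBP1 branches. The 2 lower genes serve degradation of misfolded proteins, HERPUD1 with 98.6 and 105 CPM against 39.6 and 37.0 CPM (-1.41 ± 0.069) and EDEM1 (-0.74). Of 20 NRF2 and redox genes, 11 were higher and 4 lower (median 0.21), led by SRXN1 (1.27), the heme transporter SLC48A1 (1.21), and GCLM (1.07), the regulatory subunit of glutathione synthesis. HMOX1 (1.13) was higher too, but not without the second control of the PU.1 experiment (0.66; adjusted p = 0.22), without the first of the PSPC1 experiment (adjusted p = 0.062) or after thinning (0.83; adjusted p = 0.098). SLC7A11, also known as an NRF2 target, stood on the other side.

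MHC class II was lower in all of its measured genes. Each of the 12 passed, with a median of -1.19. CD74, the invariant chain, had 2913 and 2971 CPM against 1456 and 1373 CPM (-1.06 ± 0.039; adjusted p = 3.2e-26), the highest level among genes lower by 2-fold. HLA-DRA, the alpha chain of HLA-DR, had 582 and 641 CPM against 272 and 259 CPM (-1.20 ± 0.046), and HLA-DOA, which tempers peptide loading, 14.2 and 12.1 CPM against 0.846 and 0.788 CPM (-4.01 ± 0.220). CIITA, the coactivator that class II promoters need, differed least, 177 and 172 CPM against 110 and 108 CPM (-0.68 ± 0.056). Reads of HLA-DRB1 and HLA-DRB5 may be shared between these similar genes. Of 15 MHC class I presentation genes 4 were higher and 4 lower, and 1 was higher without the first control of the PSPC1 experiment.

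**Figure D3:**
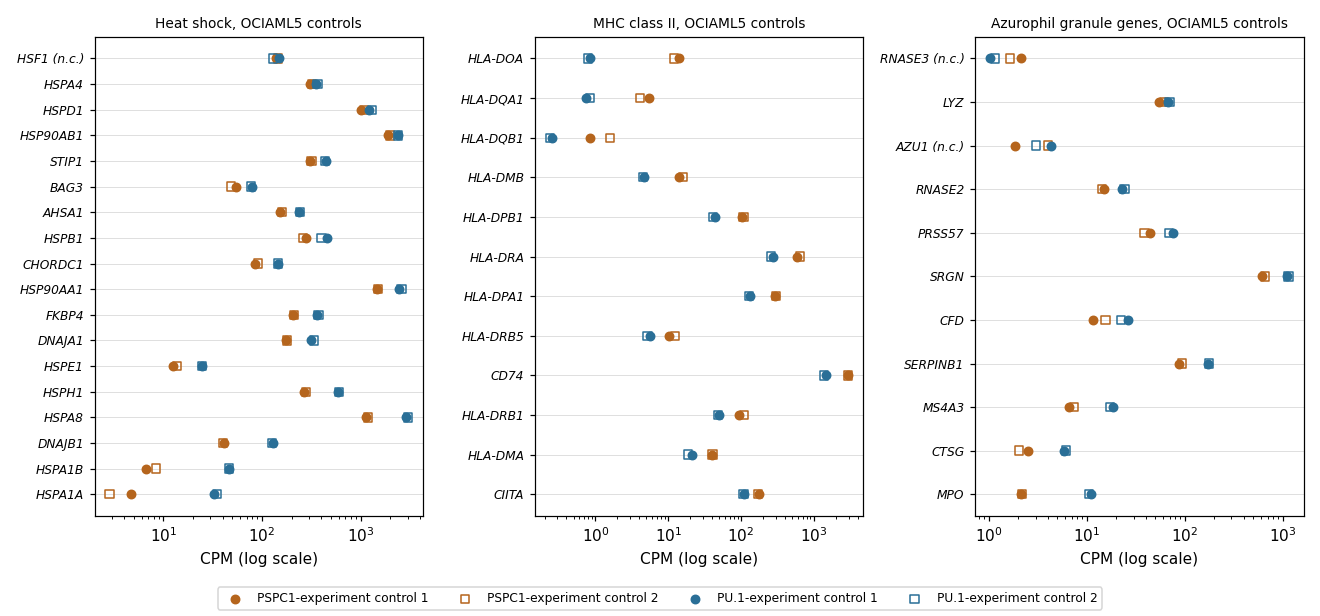
CPM (log scale) per control library of the heat shock, MHC class II and azurophil granule genes, ordered within each panel by the difference; n.c. marks genes that did not pass, and BPI, ELANE and PRTN3 are left out because a library had no count. In the MHC class II panel both PU.1-experiment controls lie left of both PSPC1-experiment controls for all 12 genes.

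Azurophil granule genes and most of the called monocyte and macrophage genes differed in opposite directions, and a shift in stage was not tested. Of 14 azurophil granule genes, 10 were higher and 0 lower in the PU.1-experiment controls (median 0.84), and of 22 monocyte and macrophage genes, 11 were lower and 3 higher (median -0.52). MPO, the peroxidase of the primary granule, had 2.14 and 2.18 CPM against 11.1 and 10.6 CPM (2.32 ± 0.235; adjusted p = 2.5e-11). CTSG, cathepsin G, had 2.54 and 2.05 CPM against 5.86 and 6.12 CPM (1.38 ± 0.227), and SRGN, the proteoglycan that packs granule proteases, 615 and 657 CPM against 1103 and 1147 CPM (0.82 ± 0.042). Apart from SRGN, SERPINB1, LYZ and PRSS57 these genes were low, and 5 of the 14 lie on 19p. Of 8 tested markers of eosinophils, basophils and mast cells, 3 were higher and 1 lower. Over all genes tested 20% were higher and 18.9% lower. The sum over the list was 21.9 and 20.4 CPM against 54.2 and 50.5 CPM. GATA2, a progenitor factor too, made up 17.4 and 16.8 CPM of it against 45.8 and 42.6 CPM (1.363 ± 0.078). Of the 15 genes in the list, 12 were under 1 CPM in all 4 controls. CPA3 and MS4A2 had no count in the PSPC1-experiment controls, and the part of these markers in the granule result was not tested. CEBPE, the factor of later granules, was higher (5.76 and 4.69 CPM against 13.2 and 12.8 CPM, 1.30 ± 0.130). Only 3 of the 16 later granule and neutrophil genes were tested, and 9 had no count in any control. Of those tested, CXCR2 (0.20) was also higher but lost its call under DESeq2 (adjusted p = 0.11) and other settings, and CSF3R did not pass.

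On the monocyte side CD36, a scavenger receptor, had 77.1 and 79.0 CPM against 6.58 and 7.43 CPM (-3.47 ± 0.095; adjusted p = 3.4e-31). MPEG1, a pore-forming protein of macrophages, had 905 and 894 CPM against 235 and 247 CPM (-1.90 ± 0.043). ITGAX, CD11c, had 13.4 and 13.7 CPM against 5.80 and 6.04 CPM (-1.19 ± 0.136). The list was not uniform, since CSF1R, the receptor of macrophage colony-stimulating factor, was higher, with 116 and 116 CPM against 169 and 163 CPM (0.51 ± 0.055; adjusted p = 1.6e-10), as were FCGR2A (0.47) and LYZ (0.25, but 0.16 with adjusted p = 0.17 without the first control of the PSPC1 experiment), while TLR4 and CYBB did not pass. FCGR2C was among the largest differences (-4.68), but it is nearly identical to other Fc receptor genes and its reads are uncertain. For SPI1 itself no direction held, as given with the hairpin targets.

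Receptors that read growth factors differed in both directions. FLT3, the receptor tyrosine kinase often mutated in this leukemia, had 243 and 255 CPM against 66.3 and 68.6 CPM (-1.88 ± 0.056; adjusted p = 9.8e-30). CSF2RA, the GM-CSF binding chain, had 24.5 and 25.1 CPM against 9.94 and 9.59 CPM (-1.35 ± 0.134), and its signalling partner CSF2RB 69.2 and 65.5 CPM against 53.6 and 46.7 CPM (-0.43 ± 0.069). IL2RA, a STAT5 target and interleukin-2 receptor chain, had 8.80 and 9.83 CPM against 0.596 and 0.630 CPM (-3.91 ± 0.349). In all, 9 of 22 cytokine receptors were lower and 3 higher (18.9% and 20% over all genes tested). The targets and feedback genes of STAT5 did not move as a group, with 6 of 18 higher and 3 lower. SOCS1 was among the higher (1.19) and BCL6 among the lower (-1.80). CISH (86.7 and 88.0 CPM against 91.0 and 83.7 CPM) and SOCS2 did not pass. MYC stood at 604 and 608 CPM against 658 and 630 CPM (edgeR adjusted p = 0.084). It passed with no low-count filter (0.16, edgeR adjusted p = 0.035), and was 0.12 without the second control of the PU.1 experiment. ID1, an inhibitor of helix-loop-helix factors, was among the 12 largest, with 2.20 and 4.62 CPM against 29.6 and 27.9 CPM (3.11 ± 0.160).

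Targets of p53 were higher. Of 26, 18 were higher and 1 lower (median 0.48). CDKN1A, the cell cycle inhibitor p21, had 186 and 191 CPM against 338 and 328 CPM (0.82 ± 0.045; adjusted p = 4.1e-20). PHLDA3, a repressor of AKT, had 14.7 and 14.3 CPM against 32.2 and 29.002 CPM (1.07 ± 0.099), and MDM2, the ligase that removes p53, 165 and 173 CPM against 230 and 226 CPM (0.44 ± 0.046). The 1 lower gene was SESN2 (-1.04), a leucine sensor that is also in the ATF4 list. Cell cycle genes were not lower with them: 17 of 30 mitosis genes were higher and 1 lower (median 0.20), among them MKI67 with 963 and 886 CPM against 1205 and 1237 CPM (0.40 ± 0.042), and DNA replication genes were balanced, 8 of 34 higher and 7 lower (median 0.022). Without the first control of either experiment 5 replication genes were higher, and without the first of the PSPC1 experiment the median of the mitosis list was 0.13.

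TXNIP and ARRDC4, arrestins induced through MondoA when glucose-6-phosphate is high, had 39.3 and 36.3 CPM against 144 and 142 CPM (1.92 ± 0.057), and 8.80 and 8.38 CPM against 40.5 and 42.7 CPM (2.27 ± 0.103). Both belong to the list of FOXO and quiescence genes, of which 4 of 21 were higher and 6 lower. Glycolysis and hypoxia genes were balanced, 8 of 28 each way, with ALDOC (-2.67) and VEGFA (-0.82) lower and LDHA and PGK1 not passing. Fatty acid synthesis had 8 of 12 genes lower and 2 higher (median -0.24), led by SREBF1, the lipogenic factor, at 192 and 198 CPM against 94.8 and 92.1 CPM (-1.06 ± 0.057). Of 23 cholesterol genes 11 were lower and 3 higher (median -0.16). With no low-count filter 5 cholesterol and 5 fatty acid genes were lower, and the cholesterol median was -0.078 without the second control of the PSPC1 experiment.

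Lists of growth machinery had slightly positive medians. Between replicates the median absolute log2 ratio was 0.0937 and 0.0709 over genes of at least 5 CPM. The summed ribosomal protein level was 41404 and 45893 CPM in the PSPC1-experiment controls and 47596 and 47093 CPM in the PU.1-experiment controls. That of ribosome biogenesis was 8335 and 8479 CPM against 8455 and 8700 CPM. Of 44 cytosolic ribosomal protein genes 26 (59.1%) were higher and 2 lower (median 0.15). Of 34 ribosome biogenesis genes 19 (55.9%) were higher and 6 lower (median 0.19). Of 34 nuclear genes of oxidative phosphorylation 14 (41.2%) were higher and 5 lower (median 0.16). Over all genes tested 20% were higher and 18.9% lower, and in the fifth of highest level 34.2% and 30.3%. Genes of the mitochondrial genome were lower in 7 of 13 and higher in 3 (median -0.13), and took 12.03% and 10.8% of the counts against 9.95% and 10.0%. Without the first control of the PSPC1 experiment 14 ribosomal protein, 11 ribosome biogenesis and 7 oxidative phosphorylation genes were higher and 4 mitochondrial genes lower, with medians of 0.071, 0.12, 0.064 and -0.054. Without the second control of that experiment the mitochondrial median was -0.23. Interferon-stimulated genes went both ways, 11 of 40 higher (6 without the first control) and 8 lower, as did NF-kB genes, 3 of 22 higher and 8 lower, where CXCL8 had 21.9 and 21.3 CPM against 54.9 and 60.0 CPM (1.41 ± 0.071).

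Outside these programs the largest differences were single genes. PLXNA4, a semaphorin receptor, had 1.30 and 0.990 CPM against 26.9 and 28.3 CPM (4.57 ± 0.194; adjusted p = 4.4e-24), SLC26A9, an anion transporter, 5.13 and 4.36 CPM against 41.5 and 43.3 CPM (3.15 ± 0.118), and NEURL1B, an E3 ligase of the Notch pathway, 1.97 and 2.31 CPM against 26.7 and 25.8 CPM (3.62 ± 0.174). In the opposite direction CLCN4, a chloride-proton exchanger, had 32.1 and 31.0 CPM against 1.41 and 1.16 CPM (-4.62 ± 0.180), and MAGEF1 19.4 and 19.9 CPM against 1.91 and 1.44 CPM (-3.56 ± 0.176). The 12 largest higher differences also held GPC6 (4.50), DLGAP3 (4.02), TM4SF1 (3.94), CD82 (3.88), COL4A2 (3.22) and GDF6 (3.18). The 12 largest lower differences also held SLC12A8 (-4.77), CNTN4 (-4.39), F2RL3 (-4.12) and EPHB3 (-4.02). SORL1, a sorting receptor, and STOM, a membrane scaffold, were among the most abundant genes higher by 2-fold, at 129 and 125 CPM against 432 and 433 CPM (1.77 ± 0.048) and at 313 and 312 CPM against 715 and 720 CPM (1.20 ± 0.044). PNP (1.09) was also among the 5 most abundant. PAX5, the B-lineage factor that some myeloid leukemias carry, had 23.2 and 24.9 CPM against 3.51 and 4.203 CPM (-2.63 ± 0.155). KDM6A, an X-linked histone demethylase singled out after its values were seen, had 7.56 and 6.53 CPM against 38.1 and 34.8 CPM (2.36 ± 0.113), and in the knockdown libraries 13.2 and 14.5 CPM in the PSPC1 experiment and 46.5 and 46.4 CPM in the PU.1 experiment. Of the 10 nearest genes of at least 5 CPM, 5 on each side, DDX3X (0.53) was higher, SLC9A7 (-0.67), KRBOX4 (-0.51) and RP2 (-0.28) were lower, and 6 did not pass. KRBOX4 and RP2 also missed the threshold without the first control of the PU.1 experiment (adjusted p = 0.052 and 0.059), and KRBOX4 without the second of the PSPC1 experiment (adjusted p = 0.11).

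Differences also followed position in the genome, a pattern noticed after the values were seen. Each chromosome was split at its widest gap between annotated protein-coding genes, which gave 45 sides with at least 20 tested genes. The short arm of chromosome 5 (105 genes, up to position 44820428) had a median of -0.43, with 67 genes lower and 7 higher, and the short arm of chromosome 19 (486 genes, up to position 24129961) a median of 0.44, with 284 higher and 29 lower. The other 43 sides lay between -0.11 and 0.088. Along 5p, 4 runs of 26 or 27 genes had medians from -0.46 to -0.38, and along 19p, 4 runs of 121 or 122 genes had medians from 0.28 to 0.57, while the long arms of both chromosomes stayed between -0.087 and 0.072. In linear terms the medians are ratios of 0.743 and 1.359. The knockdown libraries, which share no library with the controls, gave -0.37 for 5p and 0.38 for 19p when those of the PSPC1 experiment were subtracted from those of the PU.1 experiment, and -0.13 to 0.22 elsewhere. They come from the same experiments as the controls, so they share whatever differed between the experiments as a whole. The GC-rich tertile of all genes had a median of 0.13 and the GC-poor tertile -0.075; with each library's trend over length and GC removed, 5p stood at -0.38 and 19p at 0.34. DNA was not measured, so the number of copies of either arm was not tested. Together the arms hold 591 tested genes and 5.79% of those called.

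**Figure D4:**
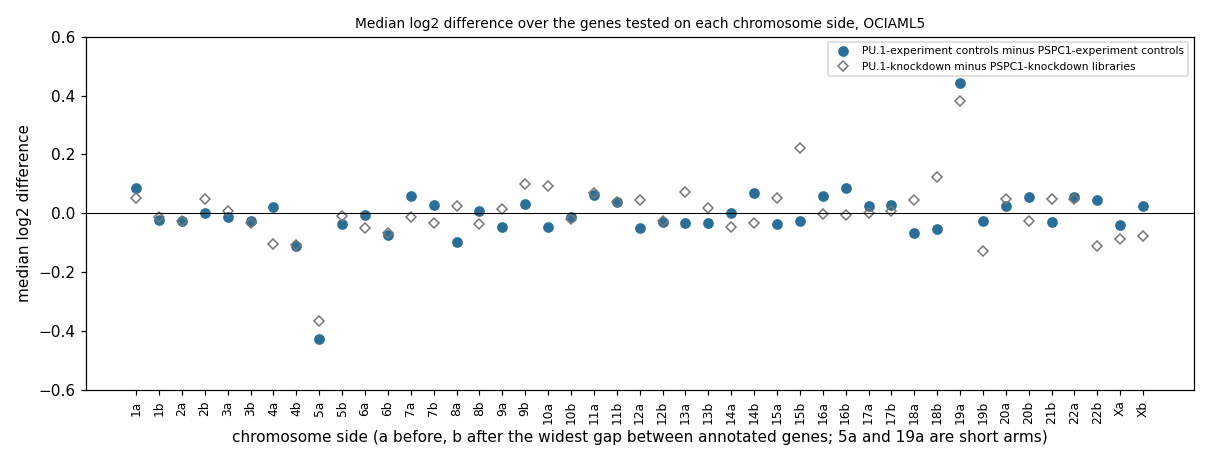
Median log2 difference over the genes tested on each chromosome side (a before, b after the widest gap between annotated protein-coding genes), for PU.1-experiment minus PSPC1-experiment controls (filled) and for PU.1-knockdown minus PSPC1-knockdown libraries (open). Sides 5a and 19a stand at -0.43 and 0.44, and the other 43 filled points lie between -0.11 and 0.088.

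PSPC1 knockdown was also read against the controls of the PU.1 experiment. In the shared fit this second reading of a gene equals the first minus the difference between the control pairs. Lists that differed between the controls therefore shift by construction, and the values below only show by how much. Set against its own controls, PSPC1 knockdown in OCIAML5 had 25 of 27 ATF4 genes lower and 1 higher (background 29.6% and 27.3%), with a median of -2.06; set against the controls of the PU.1 experiment it had 14 lower and 6 higher (background 32.8% and 31.4%), with a median of -0.25. CHAC1 stood at 1.90 and 1.14 CPM in the knockdown libraries, which was -4.46 against its own controls and 1.10 against the others (adjusted p = 0.0030). Heat shock genes had a median of 0.068 against the own controls, 7 of 18 higher and 7 lower, and of -0.69 against the others, 17 lower. MHC class II had 7 of 12 genes lower against the own controls (median -0.25) and 11 higher against the others (median 0.87). In contrast, DNA replication genes were lower in 34 of 34 against either pair, with medians of -1.73 and -1.69, and p53 targets were higher in 25 and in 24 of 26. Cholesterol genes had medians of -0.98 and -0.89. Both readings share the knockdown libraries, and the second crosses experiments, so they are given side by side and not as separate evidence.

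**Figure D5:**
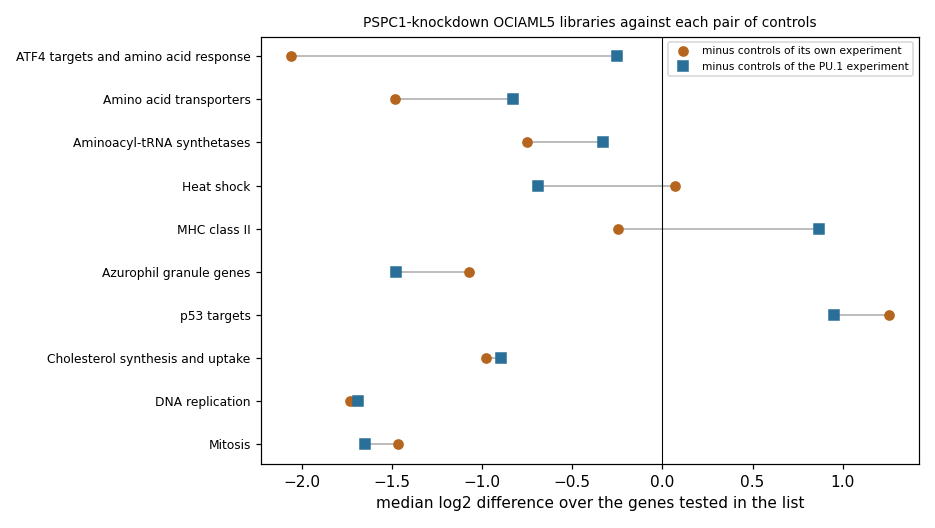
Median log2 difference of 10 gene lists in the PSPC1-knockdown OCIAML5 libraries, against the controls of their own experiment (circles) and against the controls of the PU.1 experiment (squares). The ATF4 list moves from -2.06 to -0.25 and MHC class II from -0.25 to 0.87, while DNA replication stays at -1.73 and -1.69. For each gene the second reading is the first minus the difference between the control pairs.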

How the data were processed

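Messenger RNA libraries of OCIAML5 cells were made with a stranded kit, per the labels' protocols. The authors deposited raw counts per gene, in 1 table for each experiment with 60648 genes, and the tables were joined on gene symbol. The submitters' processing notes name GRCh38, HTSeq 2.0.2, STAR 2.7.10a, DESeq2 1.36.0 and Trim Galore 0.6.7. Their roles, the gene annotation and whether counting used strand are details not given in the sources used here, so reads of a gene and of an overlapping gene cannot be told apart.

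The 8 OCIAML5 libraries (4 groups of 2, by label) were fitted together with edgeR 4.0.16 in R 4.3.3: filterByExpr, TMM, quasi-likelihood F tests with 4 residual degrees of freedom, Benjamini-Hochberg adjustment over all 17159 genes tested, threshold 0.05. The contrast of interest was the controls of the PU.1 experiment minus those of the PSPC1 experiment. The SE printed with a difference is its absolute size divided by the square root of its F statistic. The biological coefficient of variation was 4.50%. The 2 libraries of a pair differed by more than counting error (chi-square per gene 4.96 and 4.14), so none was counted as a duplicate. Counts for this contrast were also simulated, with 16684 genes tested. Changes of 0.5 and of 1 on the log2 scale were each seeded in 100 genes with a mean of at least 5 CPM. No other gene differed between the simulated controls, and the spread followed the trend over level alone. Of these changes 87% and 100% were recovered, and 5.08% of calls carried no seeded change. Recovery at lower levels, or with as many differences as in the data, was not simulated. Gene lists were described by counts and medians, with no test.

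The libraries, lists and alternatives were chosen with earlier results of these data known. Genes named came first from a fixed set (PSPC1, SPI1, NDC1, CHAC1, CDKN1A, MYC, FLT3, CSF1R). Next came the 12 largest differences each way that passed. They had a mean of 5 CPM or more on the higher side and no overlap of the pairs. Up to 5 members of each list were taken by the same conditions, but not every such member is named. The 5 most abundant genes each way at 2-fold were taken last. All other genes named, including further list members, KDM6A and its neighbours, were chosen after their values were seen. NDC1, a nuclear pore gene, stood at 149 and 154 CPM against 156 and 161 CPM (adjusted p = 0.37). Gene positions, length and GC content (for 83.7% of genes tested) are from GENCODE on GRCh38, and promoters from RefSeq on GRCh38.p14; bases after the start lay in a transcript of the same gene for 126 of 140 promoters checked. In the other planned motif searches the SRE stood in 1 of 19 cholesterol promoters and 0.425% of all, the E2F motif in 10 of 30 DNA replication promoters and 1.18% of all, the CLEAR motif in 4 of 21 lysosome promoters and 1.04% of all, and the ISRE in 24 of 30 interferon promoters and 10.6% of all.

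Other settings tried were RLE size factors, DESeq2 1.42.0, library size alone, no low-count filter, 1 CPM in at least 2 libraries, the 4 controls alone, all 12 libraries, a replicate block, an adjusted p of 0.01, a 2-fold minimum, thinning to 15839380 counts, length and GC offsets, leaving out each library, and, chosen after seeing the data, leaving out genes of 5p and 19p. Python 3.11.15 with pandas 2.3.3 and matplotlib 3.10.9 drew the plots.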

Additional observations from a re-analysis of the deposited data

How the results depend on the processing

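Of the counts over all genes, those that moved by over 1.5 times were the lower genes with no low-count filter (2087) and, by construction, the counts at a 2-fold minimum, 1207 in all, 534 higher and 673 lower. Under the other settings calls ran from 5099 at an adjusted p of 0.01 to 6735, and leaving out 1 library gave 5304 to 6735. DESeq2 called 5742 genes, 5726 of them shared (its adjusted p was NA for 666), and thinning to equal depth 6156, of which 5933 were shared. Replicate numbers did not pair the libraries (correlation of same-numbered deviations -0.0025 over 10588 genes), and a replicate block gave 6561 calls. Leaving out 5p and 19p gave 6294. No value called in the reported fit changed sign, while SPI1, not called there, passed in opposite directions under other settings. Over these settings the ATF4 list had 19 to 24 lower genes (median -1.57 to -1.32), MHC class II 11 to 12 (-1.24 to -1.12), monocyte genes 8 to 11 (-0.55 to -0.30), heat shock 5 to 17 higher genes (0.71 to 0.81), and p53 targets 2 to 19 (0.46 to 0.55), the lowest count of each at a 2-fold minimum. The median of the NF-kB list was -0.14 with no low-count filter. Low levels limit what could be called: 9.69% of the 3437 genes of lowest level passed and 64.5% of the 3431 of highest level.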

Other observations

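Among immediate early genes, which answer growth factors and stress within minutes, JUN and FOS, partners in the factor AP-1, stood on opposite sides. JUN had 6.997 and 8.71 CPM in the PSPC1-experiment controls and 23.1 and 23.7 CPM in the PU.1-experiment controls (1.58 ± 0.131; edgeR adjusted p = 6.3e-14), and FOS 16.03 and 19.7 CPM against 9.40 and 9.35 CPM (-0.92 ± 0.151). KLF10 was higher, at 8.80 and 6.60 CPM against 18.1 and 16.1 CPM (1.13 ± 0.130), and ZFP36, which destabilizes inflammatory mRNA, lower, at 67.1 and 68.6 CPM against 39.0 and 39.1 CPM (-0.80 ± 0.071). Of 24 such genes 7 were higher (29.2%) and 5 lower (20.8%), with 4 higher when genes of 5p and 19p were left out. Among 17 stem and progenitor genes 7 were higher (41.2%) and 3 lower (17.6%). Over all genes tested 20% were higher and 18.9% lower. ERG, a factor of hematopoietic stem cells, had 6.38 and 5.74 CPM against 21.7 and 21.8 CPM (1.84 ± 0.146), and MYB 409 and 405 CPM against 491 and 507 CPM (0.30 ± 0.043), while HOXA9 (-0.37) and HOXA10 (-0.56) were lower. HOXA9 did not pass with no low-count filter (adjusted p = 0.059) or after thinning (adjusted p = 0.052).

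Lysosome and autophagy genes were higher in 11 of 30 (36.7%) and lower in 4 (13.3%). Over all genes tested 20% were higher and 18.9% lower, and in the fifth of highest level 34.2% and 30.3%. The median of the lysosome list was 0.042, and -0.022 without the first control of the PSPC1 experiment. LAMP1, a membrane protein of the lysosome, had 228 and 230 CPM against 314 and 306 CPM (0.44 ± 0.045), and GPNMB, a glycoprotein of macrophages, 8.58 and 7.52 CPM against 0.846 and 1.08 CPM (-3.05 ± 0.344). Of 19 paraspeckle genes 5 were higher and 3 lower, and 9 were higher with length and GC offsets. NONO, the partner of PSPC1 in paraspeckles, had 604 and 605 CPM against 513 and 492 CPM (-0.27 ± 0.041), and SMARCA4, which lies on 19p, 482 and 456 CPM against 711 and 678 CPM (0.57 ± 0.043).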
